A study of Mus musculus with 23 samples.

Results

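The genes described here were 4 neighbours near the distal end of the mouse X chromosome, Msl3, Hccs, Prps2 and Tmsb4x, and the 6 genes whose products work beside theirs or do the same job: Msl1, Msl2 and Kat8 for Msl3, Cycs for Hccs, Prps1 for Prps2, and Tmsb10 for Tmsb4x. They were taken by symbol, and all 10 were found among the 13766 gene records of the table, each with at least 225.7 estimated counts in every library. The question was whether a raised level of the distal X genes came with a changed level of their partners.

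The libraries came from C57Bl/6J mice of the FCG model, killed at about 12 months of age, whose hippocampi were frozen. The Y chromosome of such mice lacks Sry, the testis-determining gene, and the animals with testes carry it on an autosome instead. Gonad type and sex chromosomes are thus inherited apart. Ovaries were carried by 5 XX animals (group XXF) and 6 XY animals (XYF), and testes by 6 XX animals (XXM) and 6 XY animals (XYM), with 1 library from each animal. In background knowledge of this mouse line, the Y chromosome of the stock kept at the Jackson Laboratory, the source of these animals, carries a stretch moved from the distal X that holds these 4 genes, so that XY animals of the line have a copy on the X and a copy on the Y, against 1 active X in XX animals. Copy number was not measured here, and every XY animal of the study came from this stock, so the moved stretch and the other differences between XY and XX cannot be told apart. Pups were caged by the look of their genitalia, so cage and gonad cannot be told apart either.

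The members fall into 4 working relationships. MSL3 is a chromatin-reading subunit of the male-specific lethal (MSL) complex, in which MSL1 is the scaffold, MSL2 a ubiquitin ligase and KAT8 (also called MOF) the enzyme that acetylates histone tails; KAT8 also works in a separate complex, NSL. HCCS, the holocytochrome c synthase of mitochondria, attaches haem to cytochrome c, and Cycs encodes the somatic cytochrome c that carries electrons in respiration and triggers apoptosis when released. PRPS2 and PRPS1 are isoforms of phosphoribosyl pyrophosphate synthetase, which makes the sugar phosphate from which nucleotides are built. Thymosin beta, the product of Tmsb4x and of Tmsb10, is a small peptide that binds actin monomers and keeps them from polymerizing.

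Of the whole series, total estimated counts lay between 10257751 and 36078221 per library (median 21831384), and the 10 markers of hippocampal neurons were above 0 in every library, with summed levels from 3919 to 4775 CPM, the counts of a gene scaled to a common library total. Xist, which marks an inactive X, lay between 936 and 1468 CPM in XX libraries and at or below 2.87 CPM in all XY libraries but XYF replicate 4, at 94.1 CPM. Uty, Kdm5d, Ddx3y and Eif2s3y, all Y-linked, were at or below 0.437 CPM in XX and at or above 12.8 CPM in XY libraries. Markers of the choroid plexus, a secretory tissue that borders the hippocampus, split the libraries: 7 of the 9 listed markers were in the table, and they summed to 54.1 to 214 CPM in 16 libraries and to 1909 to 3346 CPM in 7 (1 XXF, 4 XXM, 1 XYF and 1 XYM). Calls on the members that differ without these 7 libraries, and the fold changes of Prps2, are given both ways.

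On the mm10 build the 4 distal X genes lie on the minus strand, in the order Tmsb4x (chrX:167207094-167209218), Prps2 (chrX:167346333-167382699), Msl3 (chrX:168654118-168673902) and Hccs (chrX:169311531-169320343). Prps1 is the partner that is not autosomal: it lies far from that stretch on the same chromosome (chrX:140456603-140476140). The other partners are on chromosomes 11 (Msl1, chr11:98795769-98807859), 9 (Msl2, chr9:101100570-101104799), 7 (Kat8, chr7:127912517-127925762) and 6 (Cycs, chr6:50562563-50566474, and Tmsb10, chr6:72957347-72958748). The record of Msl2 spans 75.2% of its annotated exon bases and that of Hccs 48.9%, so the counts of these genes may not cover the whole transcript.

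The 250 bases before the transcription starts of the 4 distal X genes are shown. Those of the 2 paralogs Prps1 and Tmsb10 are given for comparison (RefSeq, GRCm38.p6, all 10 members matched). Capitals mark 4 short motifs on either strand: the TATA box TATAAA, the CCAAT box CCAAT, the GC box GGGCGG and the ETS core CCGGAA; sites may overlap. The windows are, for Msl3, chrX:168673873-168674122; for Hccs, chrX:169320373-169320622; for Prps2, chrX:167382750-167382999; for Tmsb4x, chrX:167209219-167209468 (these 4 on the minus strand); for Prps1, chrX:140456353-140456602 on the plus strand; and for Tmsb10, chr6:72958749-72958998 on the minus strand.
Msl3: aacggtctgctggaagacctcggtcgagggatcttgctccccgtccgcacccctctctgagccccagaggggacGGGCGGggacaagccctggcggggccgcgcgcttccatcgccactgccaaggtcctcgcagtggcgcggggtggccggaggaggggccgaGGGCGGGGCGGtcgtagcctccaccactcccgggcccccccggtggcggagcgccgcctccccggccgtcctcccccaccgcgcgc
Hccs: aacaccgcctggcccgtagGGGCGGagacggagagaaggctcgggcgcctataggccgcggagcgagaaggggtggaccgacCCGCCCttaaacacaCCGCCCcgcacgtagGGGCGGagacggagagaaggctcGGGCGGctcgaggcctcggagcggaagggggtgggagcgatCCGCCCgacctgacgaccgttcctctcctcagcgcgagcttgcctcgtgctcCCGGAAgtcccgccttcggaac
Prps2: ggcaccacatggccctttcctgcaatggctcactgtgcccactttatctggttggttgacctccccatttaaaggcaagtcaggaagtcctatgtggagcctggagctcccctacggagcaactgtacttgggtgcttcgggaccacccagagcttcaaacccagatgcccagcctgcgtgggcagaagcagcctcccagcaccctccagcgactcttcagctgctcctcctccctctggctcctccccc
Tmsb4x: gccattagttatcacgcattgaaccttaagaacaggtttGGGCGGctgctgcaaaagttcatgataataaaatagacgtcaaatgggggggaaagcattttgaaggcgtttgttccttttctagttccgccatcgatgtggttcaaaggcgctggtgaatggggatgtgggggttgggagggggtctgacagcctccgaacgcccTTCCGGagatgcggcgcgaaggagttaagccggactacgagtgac
Prps1: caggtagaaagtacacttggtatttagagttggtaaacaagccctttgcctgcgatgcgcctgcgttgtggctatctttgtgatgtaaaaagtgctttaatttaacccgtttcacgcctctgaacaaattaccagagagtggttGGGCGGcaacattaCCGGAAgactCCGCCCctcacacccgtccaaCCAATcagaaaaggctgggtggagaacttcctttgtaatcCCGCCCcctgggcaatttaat
Tmsb10: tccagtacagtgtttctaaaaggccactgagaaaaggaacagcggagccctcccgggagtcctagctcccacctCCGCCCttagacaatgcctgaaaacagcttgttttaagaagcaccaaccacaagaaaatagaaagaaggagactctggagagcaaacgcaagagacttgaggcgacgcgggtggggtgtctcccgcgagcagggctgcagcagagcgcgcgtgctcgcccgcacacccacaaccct
A GC box was in 5 of the 6 windows shown, all but that of Prps2, and an ETS core in 3, those of Hccs, Tmsb4x and Prps1. Of the partners not shown, Msl1, Msl2 and Kat8 also had GC boxes (4, 3 and 1), and Cycs did not. The Msl3 window held 3 GC boxes and 30 CpG pairs, and that of Hccs held 6 GC boxes, 1 ETS core and 32 CpG pairs. The Tmsb4x window held 1 GC box, 1 ETS core and 15 CpG pairs, while the Prps2 window held none of the motifs and 4 CpG pairs, below the median of 6 over 32851 windows of the same length. Prps1 had 1 CCAAT box, 3 GC boxes and 1 ETS core, and Tmsb10 had 1 GC box. Among all windows, 12.4% hold a TATA box, 33.8% a CCAAT box, 32.7% a GC box and 12.0% an ETS core. A match is a description of the letters and does not show that a factor binds there.

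All 4 distal X genes rose in XY animals, and none of the 6 partners passed the test. Over both gonads, Msl3 rose 1.94-fold, Hccs 1.89-fold, Prps2 1.83-fold and Tmsb4x 1.56-fold. Across all 13766 records, 0.283% were called in either direction and 0.24% were called higher in XY (edgeR quasi-likelihood test, Benjamini-Hochberg adjusted p under 0.05). At that share a set of 6 genes would seldom hold a called gene. The absence of calls therefore says little about the partners, and their intervals are given below. The lowest XY library lay above the highest XX library for 3 of the 10 members, Msl3, Hccs and Prps2, against 0.0799% of all records. The animals are separate, so the spread in these tests is between animals.

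**Figure D1:**
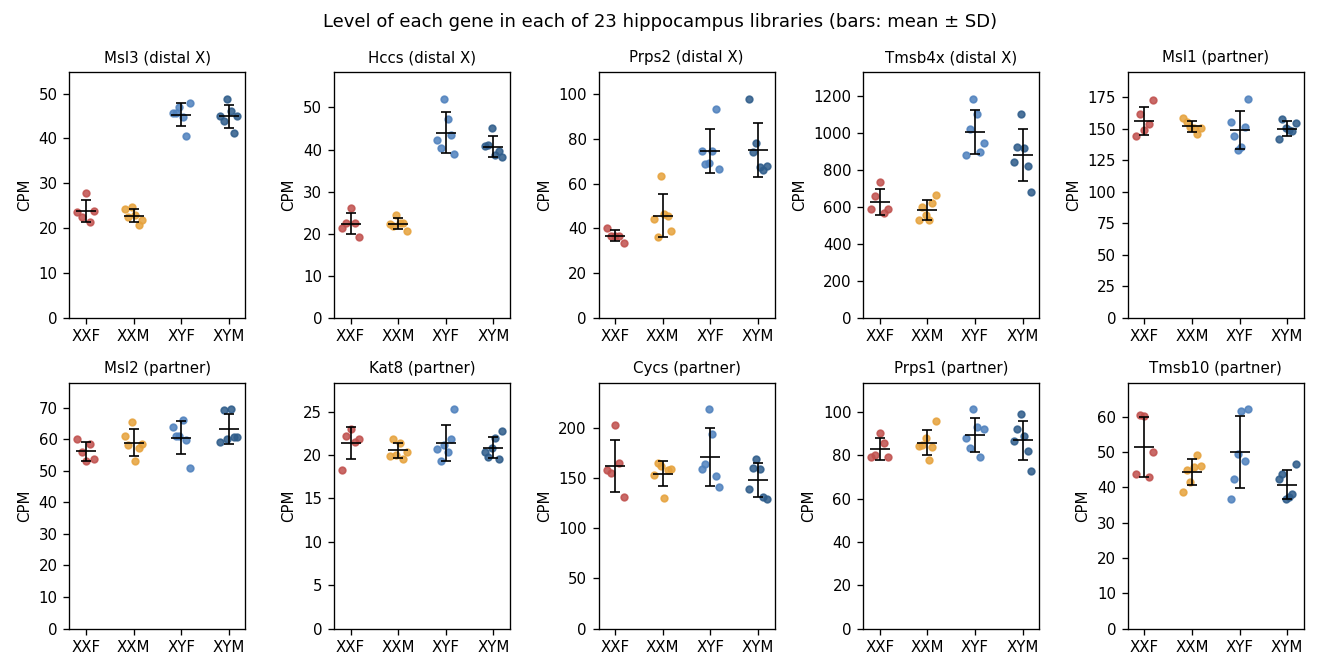
Level of each of the 10 genes (CPM, axis from 0) in 23 hippocampus libraries by group; points are libraries and bars are mean ± SD. The XY groups stand apart from the XX groups for Msl3, Hccs and Prps2, nearly so for Tmsb4x, and the groups overlap for the 6 partners.

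Msl3, the chromodomain subunit, about doubled in XY. In XXF it was at 23.6, 22.5, 27.8, 21.4 and 23.8 CPM, and in XXM the lowest, median and highest values were 20.7, 22.7 and 24.6 CPM. In XYF they were 40.5, 45.7 and 47.9 CPM and in XYM 41.1, 45.0 and 48.9 CPM. No XY library came near an XX library: the lowest XY value was 40.5 CPM and the highest XX value 27.8 CPM. The log2 fold change was 0.95 ± 0.05 (SE; 95% confidence interval 0.86 to 1.05; adjusted p = 5.08e-14, edgeR), an interval that includes a doubling. The gene Msl3l2 on chromosome 10, which shares sequence with Msl3 and was looked up after the table was seen, was at 14.5 ± 1.61 CPM in XX and 15.5 ± 2.07 CPM in XY (SD, n = 11 and 12; adjusted p = 0.906, edgeR), but reads shared between the copies may have been split by the counting.

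Msl1, the scaffold of the complex, was at 144, 162, 149, 154 and 173 CPM in XXF, and its medians were 151 (XXM), 148 (XYF) and 149.8 CPM (XYM). The lowest and highest of all its values, 133 and 174 CPM, were both in XYF, so the groups overlapped throughout. Its log2 fold change was -0.04 ± 0.04 (95% confidence interval -0.12 to 0.04; adjusted p = 0.922, edgeR).

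Msl2, the ubiquitin ligase, was at 60.2, 55.9, 53.2, 58.4 and 53.7 CPM in XXF, with medians of 58.5 (XXM), 61.1 (XYF) and 60.7 CPM (XYM). Of the 6 partners it was the one whose interval left out 0: the log2 fold change was 0.10 ± 0.05 (95% confidence interval 0.01 to 0.19), with a p of 0.0364 before adjustment and 0.693 after it over all records (edgeR). The groups overlapped, with XX libraries between 53.2 and 65.6 CPM and XY libraries between 51.0 and 69.5 CPM.

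Kat8, the acetyltransferase, was at 18.3, 22.2, 23.03, 21.6 and 21.9 CPM in XXF, with medians of 20.2 (XXM), 20.9 (XYF) and 20.6 CPM (XYM). XX libraries lay between 18.3 and 23.03 CPM and XY libraries between 19.3 and 25.3 CPM, so the ranges overlapped for most of their length. Its log2 fold change was 0.01 ± 0.05 (95% confidence interval -0.09 to 0.12; adjusted p = 0.983, edgeR).

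The ratio of Msl3 to each of its 3 partners was higher in XY. Per kb of exon, Msl3 was at 1.09 ± 0.10 of the level of Kat8 in XX and at 2.10 ± 0.16 in XY (SD, n = 11 and 12). Against Msl1 the same ratio per kb was 0.273 ± 0.03 in XX and 0.546 ± 0.05 in XY, and against Msl2 it was 0.595 ± 0.07 and 1.08 ± 0.12. On the log2 scale the ratio of Msl3 to Msl1 was higher by 0.998 in XY (95% confidence interval 0.88 to 1.11), that to Msl2 by 0.85 (0.72 to 0.99) and that to Kat8 by 0.94 (0.83 to 1.05). Each gave p = 2.34e-06 in a 2-sided exact permutation of the sex chromosome labels within gonad, the smallest that 426888 assignments allow, and an adjusted p of 2.81e-06 over the 6 gene and partner pairs. Msl3 by itself separated every XY from every XX library, and the 3 ratios share it. They show that these partners did not rise as much as Msl3, but not whether a partner changed. The ratios of the other distal X genes to their partners, given below, likewise follow mainly from the rise of the distal X gene.

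Hccs, the haem-attaching enzyme, was at 21.4, 22.5, 26.0, 22.6 and 19.2 CPM in XXF, with a lowest, median and highest value of 20.6, 22.3 and 24.5 CPM in XXM, 38.8, 42.9 and 52.1 CPM in XYF, and 38.3, 40.3 and 45.1 CPM in XYM. The XX and XY ranges were separated by a gap from 26.0 to 38.3 CPM. The log2 fold change was 0.92 ± 0.05 (95% confidence interval 0.81 to 1.02, which includes a doubling; adjusted p = 2.55e-12, edgeR).

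Cycs, whose product is the substrate of HCCS, was at 158, 155, 203, 166 and 131 CPM in XXF, and at a lowest, median and highest value of 130.0, 158 and 165 CPM in XXM, 141, 162 and 219 CPM in XYF, and 129.6, 149 and 169.7 CPM in XYM. Single libraries spread widely in each group, and XX and XY overlapped almost completely. The log2 fold change was 0.01 ± 0.07 (95% confidence interval -0.14 to 0.15; adjusted p = 0.996, edgeR). Hccs per Cycs, per kb, was 0.189 ± 0.02 in XX and 0.355 ± 0.03 in XY, a log2 difference of 0.91 (95% confidence interval 0.81 to 1.01; exact permutation p = 2.34e-06, adjusted 2.81e-06).

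Prps2 was at 40.4, 36.6, 36.7, 36.6 and 33.6 CPM in XXF, with a lowest, median and highest value of 35.97, 44.8 and 63.4 CPM in XXM, 66.8, 71.8 and 93.5 CPM in XYF, and 66.1, 70.9 and 98.1 CPM in XYM. The ranges of XX and XY came close but did not overlap (63.4 and 66.1 CPM). Its log2 fold change was 0.87 ± 0.08 (95% confidence interval 0.70 to 1.04; adjusted p = 1.15e-07, edgeR).

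Prps2 was higher, in XX as in XY, in the libraries high in choroid plexus markers. In the 16 libraries with low marker levels it was at 33.6 to 38.8 CPM in XX (36.4 ± 1.67, SD, n = 6) and at 66.1 to 78.2 CPM in XY (70.7 ± 4.22, n = 10). In the 7 libraries with high levels it was at 40.4 to 63.4 CPM in the 5 XX libraries and at 93.5 and 98.1 CPM in the 2 XY libraries. In both kinds of library the XY values were above the XX values. With the marker score in the fit the log2 fold change of Prps2 was 0.96, and in the 16 libraries alone it was 0.95. The part that choroid plexus plays in these levels was not tested.

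**Figure D2:**
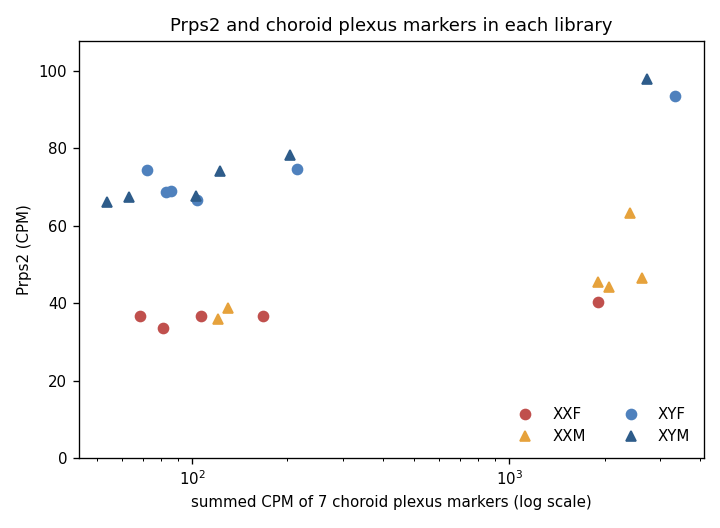
Prps2 (CPM, axis from 0) against the summed level of 7 choroid plexus markers (CPM, log scale), 1 point per library, circles for ovaries and triangles for testes. XY libraries lie above XX libraries on both sides, at 66.1 to 78.2 against 33.6 to 38.8 CPM where the markers are low, and Prps2 is higher in both where they are high.

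Prps1, the other isoform, was at 79.2, 80.0, 90.3, 85.8 and 79.0 CPM in XXF, with medians of 84.6 (XXM), 90.2 (XYF) and 87.8 CPM (XYM). XX libraries lay between 77.9 and 95.7 CPM and XY libraries between 72.5 and 101 CPM, the XY range enclosing the XX range. The log2 fold change was 0.06 ± 0.05 (95% confidence interval -0.04 to 0.16; adjusted p = 0.895, edgeR). Prps2 made up 32.8 ± 4.13% of the reads of both isoforms in XX and 45.9 ± 4.13% in XY (SD, n = 11 and 12), or 20.4% and 30.8% per exon base. So Prps1 was the more abundant isoform per base in every library, with a share of Prps2 of at most 38.2%. The summed level of the isoforms was 1.30-fold higher in XY (95% confidence interval 1.21 to 1.39; exact permutation p = 9.37e-06, adjusted 9.37e-06 over the 2 sums). The rise of Prps2 is part of this sum, so the sum is no separate test of Prps1.

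Tmsb4x had the highest level and the smallest rise of the 4 distal X genes. It was at 587, 657, 735, 566 and 587 CPM in XXF, with a lowest, median and highest value of 528, 576 and 666 CPM in XXM, 882, 983.5 and 1185 CPM in XYF, and 683, 881 and 1104 CPM in XYM. Here the ranges touched: XYM replicate 6, at 683 CPM, was below XXF replicate 3, at 735 CPM. The log2 fold change was 0.64 ± 0.07 (95% confidence interval 0.50 to 0.78; adjusted p = 1.10e-06, edgeR), an interval that leaves out a doubling.

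Its rise was smaller than that of Msl3 by 0.32 on the log2 scale (95% confidence interval 0.17 to 0.47) and smaller than that of Hccs by 0.28 (0.15 to 0.41), each with an adjusted p of 0.000597 over 6 pairs of distal X genes (exact permutation). Against Prps2 the difference was 0.24 (-0.01 to 0.48; adjusted p = 0.127, exact permutation). In the 16 libraries low in choroid plexus markers that last difference was 0.36 with an adjusted p of 0.00302, and without XXM replicate 3 it was 0.29 with an adjusted p of 0.0301. Msl3, Hccs and Prps2 did not differ from each other past the test (adjusted p = 0.581 for the 3 pairs); the intervals of these differences ran from -0.13 to 0.29.

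Tmsb10, the other thymosin beta gene, was at 43.8, 60.4, 60.1, 43.0 and 49.9 CPM in XXF, with a lowest, median and highest value of 38.6, 45.3 and 49.3 CPM in XXM, 36.8, 48.5 and 62.1 CPM in XYF, and 36.6, 40.2 and 46.7 CPM in XYM. The groups overlapped, and the 2 groups with ovaries reached the highest values. The log2 fold change was -0.08 ± 0.08 (95% confidence interval -0.24 to 0.09; adjusted p = 0.925, edgeR). Tmsb4x made up 92.7 ± 0.58% of the reads of the pair in XX and 95.4 ± 0.95% in XY (SD, n = 11 and 12). The summed level of the pair was 1.51-fold higher in XY (95% confidence interval 1.36 to 1.67; exact permutation p = 2.34e-06, adjusted 4.69e-06). As Tmsb4x makes up most of this sum, the sum restates its rise and does not test Tmsb10.

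**Figure D3:**
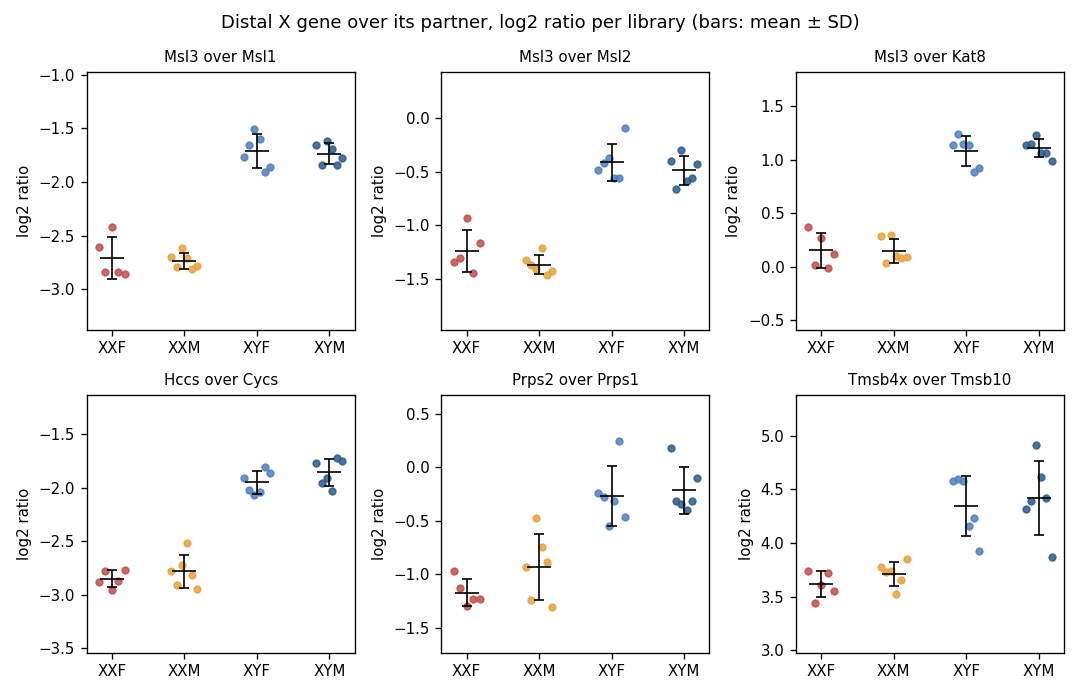
Log2 ratio of each distal X gene to its partner in 23 libraries by group; each axis spans the same log2 range, points are libraries and bars are mean ± SD. XY libraries lie above XX libraries for Msl3 to each partner, Hccs to Cycs and Tmsb4x to Tmsb10; for Prps2 to Prps1 the lowest XY value is -0.55 and the highest XX value -0.47.

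Against their partners, Prps2 rose by 0.81 on the log2 scale (95% confidence interval 0.60 to 1.02; exact permutation p = 2.34e-06, adjusted 2.81e-06) and Tmsb4x by 0.72 (0.52 to 0.92; p = 9.37e-06, adjusted 9.37e-06). Over the 6 partners, the log2 fold changes lay between -0.08 and 0.10, with a median of 0.01, beside a median of 0.00 over all records. The outer ends of their intervals, averaged over gonads, were 0.845-fold and 1.14-fold. A fall of a partner below the first or a rise above the second lies outside each of these intervals. A p that misses the threshold does not show that a partner stayed the same, and a shift inside the interval of each partner remains possible.

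The rise was read in each gonad group by itself. With ovaries, all 4 distal X genes rose, with log2 fold changes of 0.93 for Msl3, 0.97 for Hccs, 1.02 for Prps2 and 0.68 for Tmsb4x, and 0 of 6 partners were called, against 0.291% of all records. With testes, all 4 rose as well, by 0.98, 0.86, 0.72 and 0.60 in the same order, and 0 of 6 partners were called, against 0.116% of records. The partners lay between -0.07 and 0.11 with ovaries and between -0.12 and 0.10 with testes. The outer ends of their intervals were wider here, 0.824-fold and 1.22-fold with ovaries and 0.787-fold and 1.17-fold with testes. In the 16 libraries low in choroid plexus markers, which leave 2 XXM libraries, the difference of Tmsb4x with testes was 0.50 and was no longer called, while that of Prps2 was 0.93, close to its value with ovaries there (0.97).

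**Figure D4:**
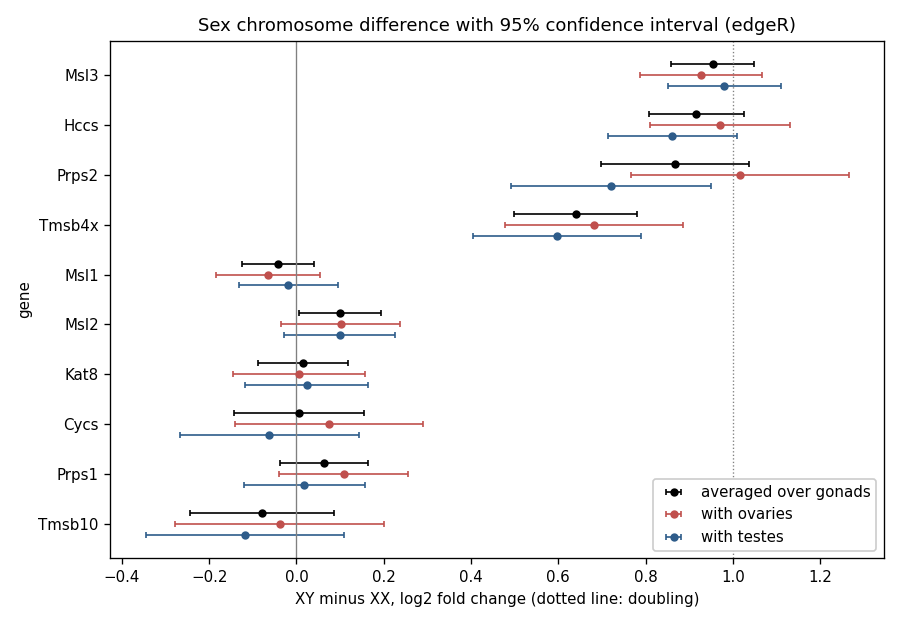
XY minus XX log2 fold change with its 95% confidence interval for each gene, averaged over gonads (black), with ovaries (red) and with testes (blue); the dotted line is a doubling. The 4 distal X genes lie between 0.60 and 1.02, and the 6 partners lie around 0, between -0.12 and 0.11.

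The size of the rise was then compared between the gonads. The interaction was called for 0 of 10 members and for 0% of records; before adjustment, 444 records had p under 0.05 in edgeR, and DESeq2, limma voom and limma voom with sample weights also called 0, with 452, 415 and 936 such records. The largest interaction among the members was that of Prps2, at -0.30 ± 0.16 (95% confidence interval -0.63 to 0.04; unadjusted p = 0.0815), and it was -0.07 with the choroid plexus score in the fit and -0.04 in the 16 libraries low in those markers.

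For gonads, testes minus ovaries, 0 of 10 members were called, against 0.16% of records. Tmsb10 had the lowest p of the 10, at -0.25 ± 0.08 (95% confidence interval -0.41 to -0.08; adjusted p = 0.204, edgeR). Tmsb4x was at -0.15 (-0.29 to -0.01; adjusted p = 0.345), Cycs at -0.14 (-0.29 to 0.01; adjusted p = 0.382) and Prps2 at 0.16 (-0.0044 to 0.33; adjusted p = 0.378), all by edgeR. These values moved with other measures. The median log2 difference between testes and ovaries was 0.75 for the 7 choroid plexus markers and -0.17 for the 10 microglia markers, with none of either called. The Prps2 difference was 0.07 with the choroid plexus score in the fit and 0.02 in the 16 libraries low in those markers; without XXM replicate 3 alone it was 0.10, and the Prps2 interaction was -0.18. With the microglia score in the fit the Tmsb4x difference was -0.05 and that of Cycs -0.08. The Tmsb10 difference was -0.24 with either score, and -0.13 by limma voom with sample weights.

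Animals also differed within XX and within XY, so each gene was set against its partner within XX and within XY animals, as deviations from the group means. Hccs and Cycs varied together in XY animals (Pearson r = 0.85, Spearman rho = 0.78, n = 12; permutation p = 0.00179 and 0.00774, adjusted 0.0215 and 0.0671 over 12 relations). XYF replicates 3 and 4 were highest in both genes, at 52.1 and 47.2 CPM for Hccs. Without these libraries r was 0.59 (permutation p = 0.0928, adjusted 0.371). The relation was thus weaker without them and no longer passed the threshold. Fewer libraries over a narrower range can also lower r, so how far it depends on them cannot be told. In XX animals r was 0.71 (rho = 0.41, n = 11; permutation p = 0.0556 and 0.258, adjusted 0.223 and 0.774) and fell to -0.03 without XXF replicates 3 and 5.

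Tmsb4x and Tmsb10 gave r = 0.78 in XX animals (rho = 0.78, n = 11; permutation p = 0.0105 and 0.0112, adjusted 0.0628 and 0.0671; r = 0.78 without the 2 farthest libraries) and r = -0.04 in XY animals (rho = 0.01, n = 12; adjusted permutation p = 0.98 and 0.99); the difference between these was not tested. Msl3 with Msl1, Msl2 or Kat8, and Prps2 with Prps1, gave an adjusted permutation p of 0.98 in XX and in XY.

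**Figure D5:**
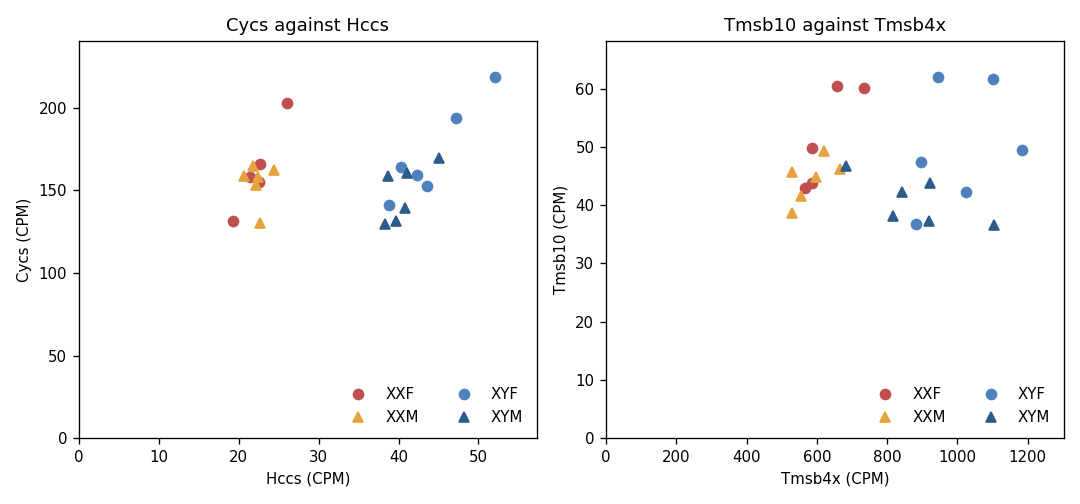
Cycs against Hccs and Tmsb10 against Tmsb4x (CPM, axes from 0), 1 point per library, circles for ovaries and triangles for testes. The XX and XY libraries form separate columns for Hccs (up to 26.0 and from 38.3 CPM) at the same range of Cycs.

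Tmsb4x is known to be abundant in microglia, and its level was set against a score of 10 microglia markers, all of them above 0 in every library and summing to 468 to 646 CPM. Over 23 libraries, as deviations from group means, r was 0.59 (rho = 0.60; permutation p = 0.00962 and 0.00799, adjusted 0.179 and 0.107 over 20 relations; r = 0.54 without the 2 farthest libraries). With log2 library total r was -0.51 (rho = -0.58; permutation p = 0.0179 and 0.0107, adjusted 0.179 and 0.107; r = -0.49 without the 2 farthest). All 10 members were set against both measures, and the relation with the microglia score was not particular to Tmsb4x. For the partner Prps1 r with the score was 0.53 (rho = 0.46, permutation p = 0.0275 and 0.0506, adjusted 0.183 and 0.338). Without the 2 farthest libraries it was 0.59. None of the 10 microglia markers was called between XX and XY, against 0.283% of all records, and their median log2 fold change was 0.07. With the microglia score in the fit the log2 fold change of Tmsb4x was 0.60, against 0.64 without it. The shift differed by gonad: with ovaries the value was 0.56 with the score and 0.68 without. With testes it was 0.63 with the score and 0.60 without. For Prps1, averaged over gonads, it was 0.04 with the score and 0.06 without. In bulk tissue, fewer cells of a type and less RNA per cell cannot be told apart.

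The wider gene lists around each member were read in the same fit, by counts and medians. At the share called over all records, 0.283%, lists of this size would hold about 0 called genes, so a count of 0 says little about a list. Of 12 other genes of the MSL and NSL complexes and their relatives, 0 were called between XX and XY, and their median log2 fold change was 0.03. Kansl2, an NSL subunit, was at 0.04, Ogt at 0.07 and Morf4l2 at 0.06. Of 13 other cytochrome c and haem genes in the table (Alad was not in it), 0 were called, with a median of 0.00; Alas1, the first enzyme of haem synthesis, was at 0.05 and Cox10 at -0.05.

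Of 16 other genes of PRPP and purine metabolism in the table (Adsl was not in it), 0 were called, with a median of -0.01. Pfas had the largest value there, 0.12 (adjusted p = 0.729, edgeR). Of 13 other thymosin and actin monomer genes in the table (Tmsb15a was not in it), 0 were called, with a median of 0.08, and 5 had an unadjusted p under 0.05, against 933 of 13766 records. The 3 with the lowest p were Dstn, which severs actin filaments (0.15, adjusted p = 0.227), Actg1, a cytoplasmic actin (0.13, adjusted p = 0.296), and Wdr1, a partner of cofilin (0.10, adjusted p = 0.435; all edgeR).

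The stretch of X around the 4 genes was read in the same way. Of 4 other genes listed in the block and found in the table (Tlr8 and Amelx were not in it), 3 rose in XY: Frmpd4, a synaptic scaffold (0.93), Tlr7, a sensor of single-stranded RNA (1.07), and Arhgap6 (0.94). Egfl6 was at -0.21 and was not called. Copy number was not measured, so whether the moved stretch holds Egfl6 cannot be told here. Of 18 neighbouring genes outside the block, 0 were called, and their log2 fold changes ran from -0.16 to 0.22 with a median of 0.00. The lowest, Piga at -0.16 (95% confidence interval -0.30 to -0.02), had an adjusted p of 0.632 (edgeR). Over all records 0.283% were called, so a count of 0 says little about these 18 genes.

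By a correlation of log2 CPM over all 23 libraries, used as a description, the genes most like Msl3 were the Y-linked Eif2s3y (r = 0.99) and Ddx3y (r = 0.98), and those most like Hccs were Ddx3y (r = 0.98) and Eif2s3y (r = 0.97). Prps2 was most like Frmpd4 (r = 0.93) and Ddx3y (r = 0.91), and Tmsb4x was most like Hccs (r = 0.91) and Tlr7 (r = 0.90). The libraries share the split of XX from XY, which all of these genes follow. For the partners the most alike genes were others: Opa3 for Msl1 (r = 0.85), Adnp for Msl2 (r = 0.80), Rims4 for Kat8 (r = 0.71), Nudt11 for Cycs (r = 0.93), Dnaja2 for Prps1 (r = 0.87) and Grm8 for Tmsb10 (r = 0.84). None of the distal X genes was the one most like its partner. The distal X genes follow the split of XX from XY and no partner was called for it. Likeness over all 23 libraries therefore says little about a gene and its partner.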

How the data were processed

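RNA of 23 hippocampi was sequenced from libraries made from 500 ng of ribosome-depleted RNA with a strand-specific kit, per the labels' protocols. A single deposited table was used. It holds estimated counts per gene, which need not be whole and were rounded here before the count tests, and normalized values that the authors deposited on a log2 scale, used for an alternative. A gene is listed, per the file headers, if some group has a raw value of 20 or more in 100% of its libraries. The submitters' processing notes name mm10 and DESeq. Aligner, counter and strand setting: not given in the sources used here.

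Counts were scaled by the trimmed mean of M-values and tested with edgeR 4.0.16 quasi-likelihood tests in R 4.3.3, in 1 fit of the 4 groups over all 13766 records, with 2-sided p adjusted by Benjamini-Hochberg over all records; filterByExpr removed 0 records. CPM used the scaled library totals, and log2 CPM a prior count of 2. Standard errors were taken as the fold change over the root of the F statistic, and intervals are at 95%. Ratios, sums and differences between genes were tested by exact permutation of sex chromosome labels within gonad, with intervals from inverting that test. Correlations used 100000 resamples within groups. Alternatives were DESeq2 1.42.0, limma 3.58.1, other scalings and filters, marker scores as covariates, and leaving out each library in turn. The fits and the permutation were tested on simulated data.

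The members, lists, tests and alternatives were chosen with earlier results of these data known, and the split by choroid plexus markers at 1000 CPM was added after seeing the data. The rule for named genes was all 10 members, the 3 of each list with the lowest p, and the genes most like each member. Cycs, the thymosins, Prps1 and Msl3 have related copies elsewhere, so counting may have split their reads. The precision is limited by depth, between 10257751 and 36078221 counts per library, and by the number of animals.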

Additional observations from a re-analysis of the deposited data

Results flagged for a closer look

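A single library stood far from the rest of its group in 2 of 40 sets checked (10 genes in 4 groups), by Dixon's criterion at 95%; chance alone gives about 1 in 20. Prps2 was at 93.5 CPM in XYF replicate 5, with the nearest library of that group at 74.6 CPM and the lowest at 66.8 CPM. That library had the highest choroid plexus markers of all, 3346 CPM, and their part in the value was not tested. Cycs was at 130.0 CPM in XXM replicate 4, the lowest of its group, with the nearest library at 153 CPM and the highest at 165 CPM.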

How the results depend on the processing

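The call of all 4 distal X genes over both gonads, and of 0 of 6 partners, held under each of the 10 other settings and without each of the 23 libraries, as did the gene against partner tests and the paralog sums under the settings run for them. The 1 single-gene call that was lost was Tmsb4x with testes in the 16 libraries low in choroid plexus markers. Partners near 0 changed sign without being called: Cycs was -0.00704 in those 16 libraries, -0.0172 with the choroid plexus score, -0.00211 with limma voom and -0.0205 with the microglia score, and between -0.0343 and 0.0519 without single libraries; Kat8 was -0.0308 in the 16 libraries, -0.00169 with the choroid plexus score and -1.87e-05 with voom sample weights, and between -0.0125 and 0.0294 without single libraries. Prps2 less Tmsb4x was 0.36 in the 16 libraries and 0.19 to 0.29 without single libraries. Correlations without the 2 farthest libraries were -0.0282 for Hccs with Cycs in XX and 0.59 in XY, -0.43 for Msl3 with Kat8 and 0.22 for Msl3 with Msl1 in XX, and 0.50 for Prps2 with Prps1 and 0.20 for Tmsb4x with Tmsb10 in XY. By plain library totals, Hccs with Cycs in XY was 0.83 (adjusted permutation p = 0.0524), and Msl3 with Msl1 was 0.0201 in XX and -0.0120 in XY; on the deposited log2 values the XX value was 0.00373.

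Counts of records called moved more. The sex chromosome effect gave 60 with DESeq2, 68 with voom sample weights, 59 with the choroid plexus score and 24 in the 16 libraries, which gave 10 with testes. The gonad effect gave 98, 76 and 42 in the first 3 of these and 13 with the microglia score; without single libraries it gave 17 to 85, with 85 without XXF replicate 5, 42 without XYF replicate 1, 34 without XYF replicate 5 and 49 without XYM replicate 1. The interaction gave 0 to 3 records, 1 without XYF replicate 1 and 3 without XYM replicate 1. No cause of these changes was tested. No paired analysis was possible because the replicate numbers follow accession order and pair no animals.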
